A study of Mus musculus with 107 samples.

Results

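The abundant non-coding RNAs described here are 6 rows of a gene expression table from mouse tumors: Rn7s1, Rn7s2, Rn7sk, Gm26917, Malat1 and Neat1. They were chosen by gene symbol, 6 of 50686 genes, because they were thought to hold the largest shares of TPM (a unit of transcript abundance corrected for transcript length, with the same total in every tumor). Levels were therefore part of the choice and are given as a description. The reason holds for Rn7s1, Rn7sk, Gm26917 and Rn7s2, which ranked 1, 2, 3 and 4 by mean TPM over all tumors. It does not hold for Malat1, ranked 23, or Neat1, ranked 274.

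Rn7s1 and Rn7s2 are the most abundant annotated genes of 7SL RNA, the scaffold of the signal recognition particle (SRP), which brings ribosomes making secreted and membrane proteins to the endoplasmic reticulum. Rn7sk is 7SK RNA, which with Larp7, Mepce and Hexim1 holds the elongation kinase P-TEFb inactive. Both are short, lack a poly(A) tail and are made by RNA polymerase III. Malat1 is a long RNA polymerase II transcript kept in the nucleus at nuclear speckles, and Neat1 is the scaffold of paraspeckles, nuclear bodies that form under stress. Gm26917 is annotated as a lincRNA without a known function. In total RNA depleted of ribosomal RNA, unlike in poly(A)-selected RNA, short structural RNAs remain in the library.

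The annotated transcripts of Rn7s1 and Rn7s2 in GENCODE M21 (GRCm38) differ at 0 of 300 bases, which limits what can be said about either row. Rn7s1 lies at chr12:69159295-69159594 on the plus strand and Rn7s2 at chr12:69361182-69361481 on the minus strand. Rn7sk spans chr9:78175303-78175633 on the minus strand, and its first 300 bases (chr9:78175334-78175633) are shown to show where a motif of its partner protein lies. Capitals there mark the 3 copies of GATC, a motif known from the binding of HEXIM1. GATC, whose reverse complement is the same letters, also occurs at least once in 64.0% of 1521 other annotated transcripts whose length is within 10 bases of that of Rn7sk, and at least 3 times in 9.80% of them.
Rn7sk: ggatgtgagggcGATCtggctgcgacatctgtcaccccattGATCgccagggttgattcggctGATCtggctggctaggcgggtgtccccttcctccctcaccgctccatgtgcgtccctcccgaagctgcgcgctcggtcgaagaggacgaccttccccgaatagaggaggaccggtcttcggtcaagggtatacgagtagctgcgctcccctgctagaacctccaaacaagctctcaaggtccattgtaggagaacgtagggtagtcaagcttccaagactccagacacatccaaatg

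Reads of these transcripts would be shared between 2 rows if the authors' annotation held the same sequences, which was not analysed here. Results are therefore given for the sum of Rn7s1 and Rn7s2, named 7SL, and for the rows where they differ. The sum leaves out the less abundant Rn7s6, with a mean of 860 TPM. Rn7sk shares 217 of its 307 stretches of 25 bases with Gm24447, a 7SK-like gene with a mean of 661 TPM, so a small part of its reads could have been placed there. Gm26917 (chr17:39843013-39846341, plus strand, 3329 exonic bases) shares no such stretch with another annotated gene. It ends 616 bases before Gm42418, another abundant lincRNA row, which overlaps the ribosomal RNA gene Rn18s-rs5 on the opposite strand. Malat1 (chr19:5795690-5802672, minus strand, 6983 exonic bases) and Neat1 (chr19:5824708-5845478, minus strand, 20771 exonic bases) are neighbors, 22035 bases apart.

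The tumors were subcutaneous transplants of 12 mouse cancer cell lines into syngeneic mice aged 7 weeks. Treatment-naive tumors (Base, 35 tumors) were taken at about 100 mm3 on day 1, and tumors left without treatment (NT, 36 tumors) or given lenvatinib, an oral inhibitor of VEGF and FGF receptors and other kinases (LEN, a daily dose of 10 mg/kg over 7 days, 36 tumors), were taken on day 8. Each model had 3 tumors per group, except for MC38 Base with 2. BNL 1ME A.7R.1 (BNL) and Hepa 1-6 (Hepa) grew in male mice of strains BALB/cAnNCrlCrlj and C57L/J. Renca, RAG, CT26.WT (CT26), 4T1 and EMT6 grew in female BALB/cAnNCrlCrlj mice, MC38 and B16-F10 (B16F10) in C57BL/6NCrl, LL/2 (LL2) in C57BL/6JCrl, MBT2 in C3H/HeNCrl and KLN205 in DBA/2NCrl. The labels name no altered gene in any group, each model is a single cell line, and RAG cells had been adapted to growth in mice. Hepatocyte markers (Alb, Afp, Ttr and Apoa1) summed to 3874 TPM in Hepa Base tumors but to 0.403 TPM in BNL, where all 4 were under 1 TPM. Melanocyte markers summed to 8237 TPM in B16F10 and squamous markers to 998 TPM in KLN205. Kidney markers summed to 204 TPM in Renca and 83.9 TPM in RAG. Intestinal markers summed to 0.930 TPM in MC38 and 0.420 TPM in CT26, with 3 of 3 under 1 TPM in each. Urothelial markers summed to 1.86 TPM in MBT2, where 3 of 4 were under 1 TPM. Epithelial markers summed to 876 TPM in 4T1 and 197 TPM in EMT6 but to 9.465, 6.65 and 4.87 TPM in MC38, CT26 and MBT2. Protein-coding genes took 27.5% to 66.6% of the TPM of a tumor. The depth per tumor is unknown, because TPM keeps none. In bulk tumors, fewer cells of a type and less RNA per cell cannot be told apart.

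One LEN tumor of 4T1, replicate 4, stood apart from all other tumors, and results that rest on it are given with and without it. Gm26917 took 24.2% of its TPM, against at most 8.67% elsewhere, and Gm42418 and Rn18s-rs5 took 4.91% and 5.13%, against at most 2.31% and 1.495%. Genes of the mitochondrial genome took 0.773% there, against 2.75% or more in every other tumor, and protein-coding genes took 27.5%, against 37.1% or more.

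The 6 RNAs together took 29.7% ± 6.38 of the TPM (SD over all tumors), from 19.004% in a B16F10 LEN tumor to 51.5% in the 4T1 LEN tumor above. Without that tumor the mean was 29.5% ± 6.04. 7SL took 15.8% ± 5.64, Rn7sk 8.42% ± 1.61, Gm26917 5.19% ± 2.23 (5.01% ± 1.25 without that tumor), Malat1 0.244% ± 0.0837 and Neat1 0.0314% ± 0.0117. Rn7s1 was the highest row of the table in 78 tumors, Rn7sk in 26 and Gm26917 in 1, and mt-Rnr2, a mitochondrial ribosomal RNA, in the other 2. The remaining rows among the 10 highest by mean TPM were Rmrp (an RNA processing enzyme's RNA, 2.60% of the TPM), mt-Rnr2 (2.29%), mt-Rnr1 (1.97%), Gm42418 (1.19%), mt-Atp8 (0.708%) and Rn18s-rs5 (0.662%). TPM divides reads by transcript length, so it raises short RNAs. When each TPM was multiplied by its annotated exonic length, a rough share of sequenced bases, 7SL took 1.90% ± 0.851, Rn7sk 1.09% ± 0.254, Gm26917 6.70% ± 2.99, Malat1 0.663% ± 0.236 and Neat1 0.252% ± 0.0907.

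**Figure D1:**
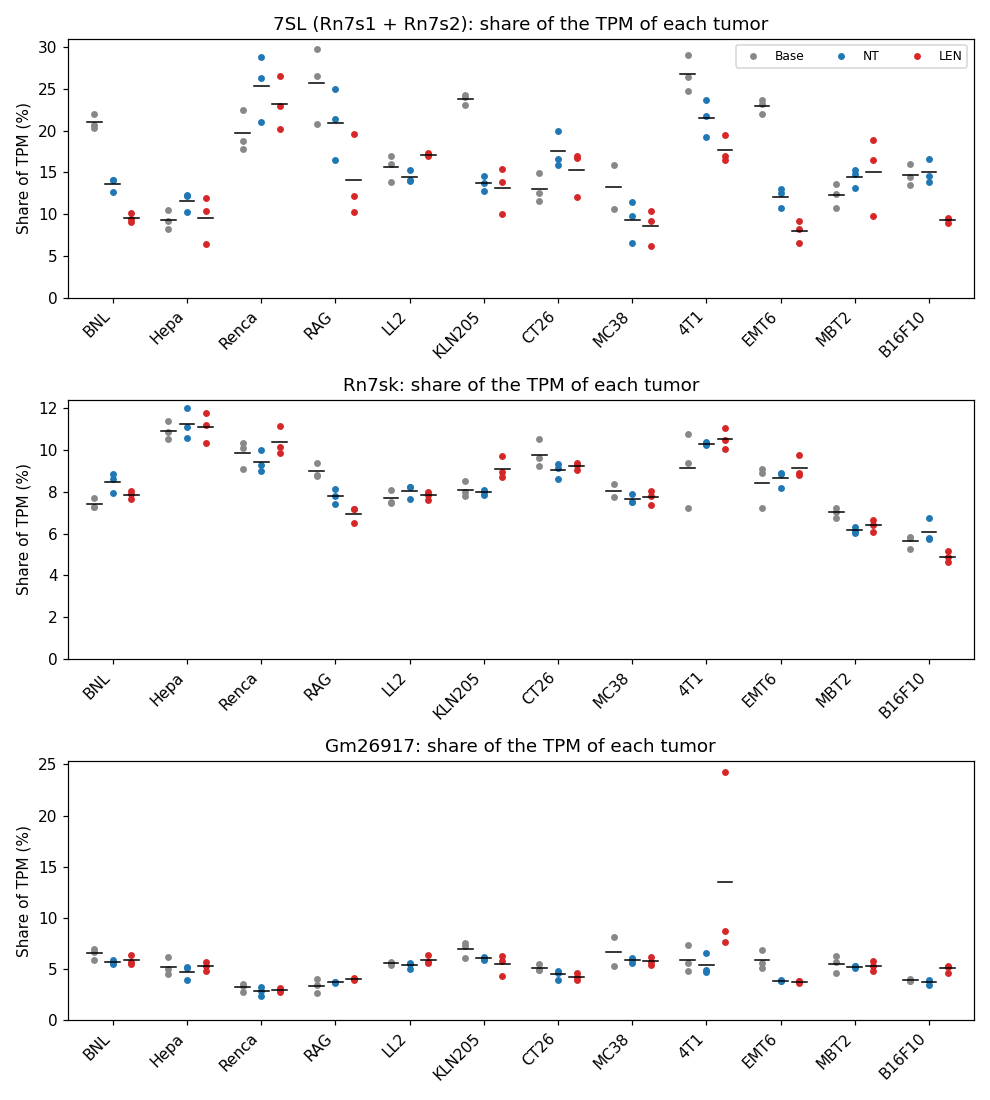
Share of the TPM of each tumor (%, linear axis from 0) taken by 7SL, Rn7sk and Gm26917 in 12 models, with 1 point per tumor colored by group (Base, NT, LEN) and a bar at the group mean. 7SL spans 6.23% to 29.8%, Rn7sk 4.66% to 12.0%, and a single 4T1 LEN tumor lies at 24.2% for Gm26917.

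The 7SL share of treatment-naive tumors fell into a high and a low group of models. 4T1 (26.8% ± 2.17), RAG (25.7% ± 4.58), KLN205 (23.8% ± 0.658), EMT6 (23.0% ± 0.858), BNL (20.99% ± 0.937) and Renca (19.7% ± 2.44) were at the top. LL2 (15.6% ± 1.58), B16F10 (14.7% ± 1.25), MC38 (13.3% ± 3.70), CT26 (13.001% ± 1.72), MBT2 (12.3% ± 1.48) and Hepa (9.32% ± 1.15) followed. The ranges of neighboring models overlapped for 9 of 11 pairs in this order and lay apart between Renca and LL2 and between MBT2 and Hepa. The highest model was 2.87-fold above the lowest.

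Rn7sk varied least between models, by 1.94-fold in Base, from 10.9% ± 0.437 in Hepa to 5.62% ± 0.322 in B16F10. Hepa lay above its neighbor Renca, BNL above MBT2 and MBT2 above B16F10 without overlap of their tumors, and the other 8 neighboring pairs overlapped. Hepa was thus highest for 7SK and lowest for 7SL. Gm26917 ranged over 2.17-fold in Base, from 6.94% ± 0.765 in KLN205 to 3.19% ± 0.384 in Renca, and B16F10, RAG and Renca formed a low group apart from the rest.

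Malat1 in Base ranged over 3.13-fold, from 3605 ± 621 TPM in RAG to 1153 ± 37.7 TPM in B16F10, and Renca, MC38 and B16F10 lay below the other 9 models without overlap at that step. Neat1 ranged over 2.65-fold, from 490.7 ± 75.2 TPM in Hepa to 185.1 ± 22.0 TPM in B16F10, and all 11 neighboring pairs overlapped. Each of the 6 rows differed between models in Base by limma's F test (highest adjusted p = 0.000373, for Rn7sk), as did 93.6% of all 17542 genes tested. Without a minimum on mean TPM the 4 rows other than Malat1 and Neat1 did not pass (adjusted p = 1), and with a pseudocount of 0.1 Rn7sk did not (adjusted p = 0.123). The share of variance lying between models was 81.0% to 93.7% for the 6 rows, beside a median of 90.5% over all genes.

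Rn7s1 was above Rn7s2 in every tumor although their transcripts in GENCODE M21 are identical, and the ratio of the rows depended on the model. It had a median of 2.59 and ran from 1.08 in a RAG Base tumor to 3.68 in a KLN205 NT tumor. RAG had the lowest ratios in each group, 1.24 ± 0.161 in Base, 1.69 ± 0.153 in NT and 1.70 ± 0.0725 in LEN. Base tumors of 9 models had mean ratios between 2.501 and 2.78, MC38 had 2.61 from 2.12 and 3.10, and Hepa had 1.84 ± 0.0194. In BNL the ratio was 2.65 ± 0.120 in Base and 1.97 ± 0.153 in NT, and in KLN205 it was 2.62 ± 0.0358 and 3.52 ± 0.176. The values came from RSEM, which divides reads that match several transcripts by estimated abundance. Why the rows differed was not tested. The sequences of the authors' annotation release were not analysed here, and the level of either row alone is uncertain.

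**Figure D2:**
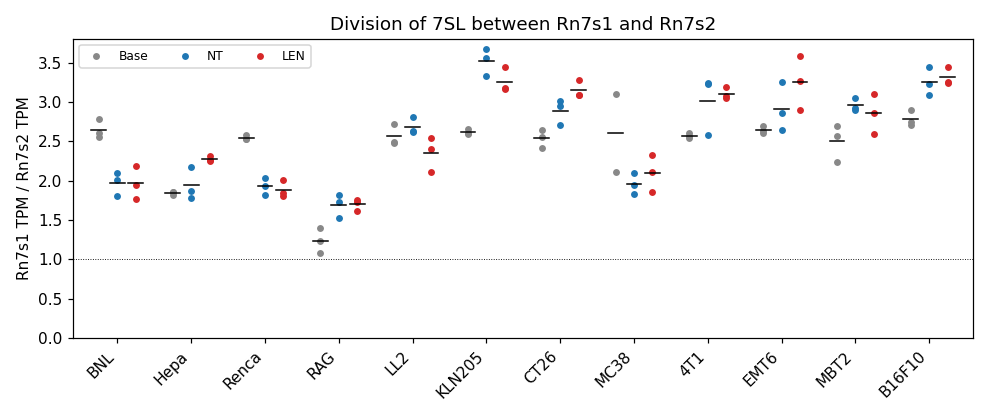
Ratio of Rn7s1 TPM to Rn7s2 TPM (linear axis from 0, dotted line at 1) in 12 models, with 1 point per tumor colored by group and a bar at the group mean. All tumors lie above 1, and RAG has the lowest mean in each group.

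The question of the treated tumors is how LEN changed these RNAs on day 8. Averaged over the 12 models with equal weight, 7SL was lower and Malat1 and Neat1 were higher with LEN, and Rn7sk was nearly level. In the limma fit over 36 LEN and 36 NT tumors, 9.87% of 17351 genes were lower and 13.7% higher at an adjusted p under 0.05 (23.5% in either direction), with a median difference of -0.0019 over all genes. This balance depends on the scaling: 3181 genes were lower and 2196 higher with scaling over non-member genes, 3163 and 2279 by the upper quartile and 2895 and 2653 over protein-coding genes, against 1712 and 2371. Among the 6 rows, 2 were lower (Rn7s1 and Rn7s2) and 3 higher (Malat1, Neat1 and Gm26917).

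7SL, the SRP scaffold, fell with LEN by 0.27 on the log2 scale (SE 0.0650, a fold of 0.828, adjusted p = 0.00110). It was lower in 10 of 12 models, and 6.6% of all genes were lower in at least that many. The call was lost without a minimum on mean TPM (-0.27, adjusted p = 1) and with a replicate block (-0.20, adjusted p = 0.205). Its difference was -0.69 in B16F10, where the 3 NT tumors had 14.6%, 13.9% and 16.6% of their TPM as 7SL and the LEN tumors 9.47%, 9.57% and 8.89%. In BNL the NT tumors had 14.1%, 12.7% and 14.1%, and the LEN tumors 9.11%, 10.1% and 9.42%. In EMT6 the values were 12.5%, 13.1% and 10.7% in NT and 6.57%, 9.13% and 8.18% in LEN. In these 3 models every LEN tumor was below every NT tumor. In RAG, by contrast, NT tumors with 16.5%, 21.4% and 24.97% overlapped LEN tumors with 19.6%, 10.3% and 12.2%. LL2 went the other way, with 15.3%, 14.2% and 14.0% in NT and 17.2%, 17.3% and 16.9% in LEN, and its groups did not overlap either. Over all genes and models, LEN tumors of a model were all below the NT tumors in 10.6% of cases and all above in 12.7%.

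Fitted 1 model at a time, 7SL was called lower in B16F10 (adjusted p = 0.00601) and BNL (adjusted p = 0.0129), where 11% and 31.5% of genes were called in either direction. Both calls were lost without a minimum on mean TPM (adjusted p = 1). In EMT6 the difference was -0.61 with an adjusted p of 0.103, and 0.916% of genes were called. With a minimum of 5 TPM it passed (adjusted p = 0.0495). The share of genes called in the other models was 12.1% in Renca, 0.228% in KLN205, 0.148% in LL2, 0.0664% in Hepa, 0.0326% in RAG, 0.0314% in MC38, 0.0195% in MBT2, 0.0127% in 4T1 and 0.00659% in CT26. For 7SL, the test of a difference between models in the LEN effect did not pass (F test adjusted p = 0.201). The Rn7s2 row alone passed it (adjusted p = 0.0395) and the Rn7s1 row did not (adjusted p = 0.273), and 35.3% of all genes passed. The Rn7s2 result was lost with the replicate block (adjusted p = 0.138) and under 3 other settings. The B16F10 call kept its side of the threshold when each tumor was left out in turn. The BNL call was lost in 3 of 6 such fits, with an adjusted p of up to 0.0677, when any of NT replicates 1, 3 and 4 was left out.

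Rn7s6, another 7SL gene, on chromosome 6, which shares 54.0% of the 25-base stretches of Rn7s1, was lower by 0.33 (SE 0.0765, adjusted p = 0.000874) and lower in 11 of 12 models. Of 10 other small structural RNAs tested, Rn7s6 included, 4 were lower and 0 higher with LEN, with a median difference of -0.20. The largest fall among them was in Rny1, a Y RNA bound by Ro60, at -0.80 (SE 0.129, adjusted p = 2.90e-06), lower in 12 of 12 models. Rmrp was lower by 0.19 (SE 0.0393, adjusted p = 0.000221) in 8 of 12. Among the mRNAs of the SRP proteins and receptor, 1 of 9 tested was higher and 0 were lower, with a median difference of 0.023, where 13.7% and 9.87% of all genes were called. With scaling over protein-coding genes, 2 were higher and 2 lower, beside 2653 and 2895 of 20034 genes. The call was Srprb, the beta subunit of the SRP receptor, at 0.10 (SE 0.0324, adjusted p = 0.0188). Of 25 RNA polymerase III subunits and factors, 1 was higher (Snapc1, 0.12) and 1 lower (Snapc5, -0.24), both subunits of the complex that starts snRNA and 7SK genes. Of 6 La and decay factors, limma called 0 either way, and 0 had an unadjusted p under 0.05.

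Rn7sk, the brake on P-TEFb, had a mean LEN difference of -0.0080 on the log2 scale (95% interval -0.064 to 0.048, adjusted p = 0.882), with 5 of 12 models on the lower side. B16F10 had the lowest difference, at -0.31, with 5.73%, 5.77% and 6.74% in NT and 4.87%, 5.16% and 4.66% in LEN. KLN205 had the highest, at 0.19, with 7.99%, 8.08% and 7.85% in NT and 8.70%, 8.93% and 9.71% in LEN. RAG was lower by 0.16, with 7.81%, 8.14% and 7.43% in NT and 7.20%, 7.16% and 6.51% in LEN. The groups did not overlap in any of these 3 models and overlapped in the other 9. Over all genes and models, LEN tumors of a model were all below the NT tumors in 10.6% of cases and all above in 12.7%. None of the 3 models passed the test within the model (adjusted p = 0.0727 in B16F10, 0.870 in RAG and 0.720 in KLN205). B16F10 passed with a minimum of 5 TPM (adjusted p = 0.0369). For Rn7sk the F test of a difference between models did not pass (adjusted p = 0.111), but it passed without the 4T1 LEN tumor that stood apart (adjusted p = 0.0197). Of the 7 genes of the 7SK particle and P-TEFb, 1 was higher (Hexim1, the P-TEFb inhibitor, 0.15, SE 0.0473, adjusted p = 0.0148) and 1 was lower (Larp7, the 7SK-binding protein, -0.10, SE 0.0372, adjusted p = 0.0345), where 13.7% and 9.87% of all genes were called.

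Malat1 rose with LEN by 0.21 (SE 0.0465, a fold of 1.16, adjusted p = 0.000387) and was higher in 9 of 12 models. In Hepa the NT tumors had 2123, 1858 and 1935 TPM and the LEN tumors 3249, 3186 and 2682 TPM. In MBT2 they had 2310, 2016 and 2793 TPM and 3903, 3389 and 2976 TPM. LL2 again went the other way, with 4034, 4066 and 3809 TPM in NT and 3382, 3350 and 3704 TPM in LEN. All LEN tumors lay above all NT tumors in 5 models and below in 1, LL2, beside 12.7% and 10.6% of cases over all genes and models. No single model passed the test for Malat1, the lowest adjusted p being 0.0800 in Hepa. Renca (adjusted p = 0.102) passed with each of the 3 other scalings, at an adjusted p as low as 0.00857, and BNL (adjusted p = 0.108) passed without LEN replicate 2 (adjusted p = 0.0122). For Malat1 the F test of a difference between models did not pass (adjusted p = 0.0982). The F test for Malat1 passed without the 4T1 LEN tumor that stood apart (adjusted p = 0.00556), and the mean rise was then 0.24 (adjusted p = 2.12e-07). It also passed without LEN replicate 2 or 5 of 4T1.

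Neat1 rose with LEN by 0.27 (SE 0.0514, a fold of 1.21, adjusted p = 5.43e-05), was higher in 7 of 12 models, and its LEN effect differed between models (F test adjusted p = 9.26e-05, but 0.142 with the replicate block). In BNL the NT tumors had 176.0, 177.9 and 163.6 TPM and the LEN tumors 272.8, 360.5 and 403.1 TPM. In Hepa the NT tumors had 358.7, 301.4 and 307.5 TPM and the LEN tumors 627.5, 633.0 and 587.9 TPM. These are differences of 0.98 (adjusted p = 0.00254) and 0.94 (adjusted p = 0.0477), and both models were called. The Neat1 call in Hepa was lost in 5 of 6 fits that left out 1 tumor, any but NT replicate 4, with an adjusted p of up to 0.241. It was also lost under 5 of 7 other settings, the 3 other scalings, no trend and no minimum on mean TPM, with an adjusted p of up to 0.130. In 4T1 the NT tumors had 310.4, 279.1 and 282.8 TPM and the LEN tumors 390.4, 486.5 and 473.8 TPM, without overlap and without a call. RAG had the lowest difference, -0.23, with 180.1, 189.5 and 268.3 TPM in NT and 204.9, 177.7 and 154.7 TPM in LEN, which overlapped. With the 12 models as the units, an exact test of sign flips of their differences gave a two-sided p of 0.0527 for Neat1, 0.00977 for Malat1 and 0.00879 for 7SL.

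**Figure D3:**
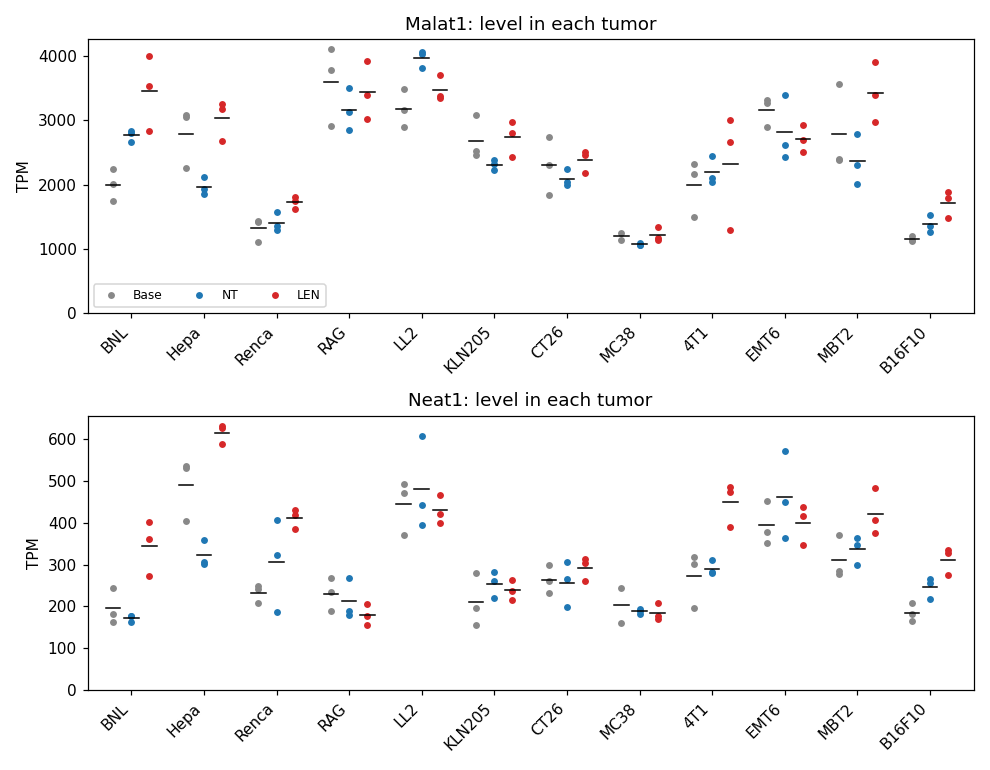
Malat1 and Neat1 levels (TPM, linear axis from 0) in 12 models, with 1 point per tumor colored by group (Base, NT, LEN) and a bar at the group mean. In Hepa the LEN tumors of both RNAs lie above the NT tumors, and in LL2 the Malat1 values of LEN tumors lie below those of NT tumors.

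Among the mRNAs of paraspeckle proteins, partners of Neat1, 1 of 9 was higher (Cpsf6, an RNA cleavage factor, 0.14, SE 0.0343, adjusted p = 0.00126, though higher in 3 of 12 models) and 2 were lower, with a median of -0.075 and 6 at an unadjusted p under 0.05, where 13.7% of all genes were higher and 9.87% lower. With scaling over protein-coding genes 7 of the 9 were lower, as were 2895 of all 20034 genes then tested. Of 7 nuclear speckle proteins, 1 was lower (Srsf3, a splicing factor, -0.10, adjusted p = 0.00368) and 0 were higher. Of 22 other long non-coding RNAs and host genes tested, 2 were higher and 6 lower, with H19, an imprinted RNA, at 0.65 and Meg3, another imprinted RNA, at -0.62. Genes of stress and hypoxia were higher in 11 of 12, led by Vegfa, the VEGF ligand, at 0.67 (SE 0.0558, adjusted p = 8.63e-14).

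Other markers moved with LEN in the same tumors. Of the 4 endothelial markers tested all were lower, and the 5 listed summed to 40.2 to 181.5 TPM in NT and 18.9 to 107.5 TPM in LEN tumors. All 5 erythroid markers were lower (sums of 20.04 to 2781 TPM and 4.76 to 298.2 TPM), and 4 of 5 macrophage markers were lower (57.3 to 1290 TPM and 178.7 to 1221 TPM). All 5 T-cell markers were higher (0.720 to 91.1 TPM and 2.00 to 86.8 TPM), as were all 4 neutrophil markers (1.22 to 154.6 TPM and 10.0 to 290.9 TPM) and all 4 skeletal muscle markers (1.25 to 125.8 TPM and 1.77 to 1953 TPM). Of 4 epithelial markers 3 were higher (0.56 to 1466 TPM and 0.68 to 1279 TPM), led by Cdh1, the epithelial cadherin, at 0.55 (adjusted p = 1.71e-10), and 1 of 3 squamous markers was higher (Krt14, a basal keratin, 0.59), as was 1 of 2 intestinal markers (Lgr5, a stem cell receptor, 0.16). Lgr5 was higher in 6 models and lower in 6, and with scaling over protein-coding genes 0 of the 2 were called. The intestinal markers listed summed to 0.930 TPM in MC38 Base tumors, 0.420 TPM in CT26 and 123 TPM in Hepa. Of 4 fibroblast markers 1 was higher (Dcn, a matrix proteoglycan, 0.36) and 1 lower (Col1a1, a collagen chain, -0.29). Of 2 adipocyte markers 1 was higher (Adipoq, an adipocyte hormone, 0.54) and 1 lower (Fabp4, a fatty acid carrier, -0.42). Limma called 0 of 4 melanocyte, 0 of 4 hepatocyte, 0 of 3 kidney and 0 of 1 urothelial markers, with 1 (a kidney marker) at an unadjusted p under 0.05. Of 4 proliferation genes 3 were lower, as were all 11 replication histone mRNAs tested, which like 7SL lack a poly(A) tail. The part of these in the changes of 7SL, Malat1 and Neat1 was not tested. Of 16 cytosolic ribosomal protein mRNAs limma called 0, with 2 at an unadjusted p under 0.05, and 1 of 13 mitochondrial mRNAs was higher (mt-Nd6, 0.22).

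Gm26917 was higher with LEN by 0.15 (SE 0.0556, adjusted p = 0.0402), in 8 of 12 models, and the effect differed between models (F test adjusted p = 0.0101, 0.00870 without the 4T1 tumor that stood apart, and 0.384 with the replicate block). In 4T1 the NT tumors had 6.52%, 4.65% and 4.93% and the LEN tumors 8.67%, 24.2% and 7.63%, a difference of 1.14 with no overlap and no call. Without the 24.2% tumor the difference was 0.62 in 4T1 and 0.11 over all models (adjusted p = 0.0131), and without the 4T1 model it was 0.061 (adjusted p = 0.169). In B16F10, where the row was called (0.44, adjusted p = 0.0207), the NT tumors had 3.91%, 3.78% and 3.45% and the LEN tumors 5.29%, 4.64% and 5.23%. That call was kept in 2 of 6 fits that left out 1 tumor, and was lost without NT replicate 2 or 5 or LEN replicate 2 or 5, and without a minimum on mean TPM (adjusted p = 1). Leaving out single tumors or models ended the mean call in 26 of 84 fits, and scaling each tumor to the total of all other genes gave 0.12 (adjusted p = 0.140). With the replicate block it was 0.15 (adjusted p = 0.175). Gm42418 was higher by 0.19 (SE 0.0517, adjusted p = 0.00444) in 9 of 12 models. In the same direction, Rn18s-rs5 differed by 0.18 (adjusted p = 0.134), mt-Rnr1 by 0.20 (adjusted p = 0.0542) and mt-Rnr2 by 0.19 (adjusted p = 0.118). Without the 24.2% tumor, a setting chosen after these values had been seen, Gm42418 was higher by 0.15 (adjusted p = 0.000782), Rn18s-rs5 differed by 0.12 (adjusted p = 0.164), and mt-Rnr1 (0.25, adjusted p = 0.000482) and mt-Rnr2 (0.26, adjusted p = 0.000126) were called higher. How completely ribosomal RNA was removed from each tumor is not known, and its part in the Gm26917 values was not tested. The list of rRNA-like rows had 2 higher of 5 tested and 0 lower. The other call was Lars2, whose mRNA is a mitochondrial tRNA synthetase's, at 0.40.

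**Figure D4:**
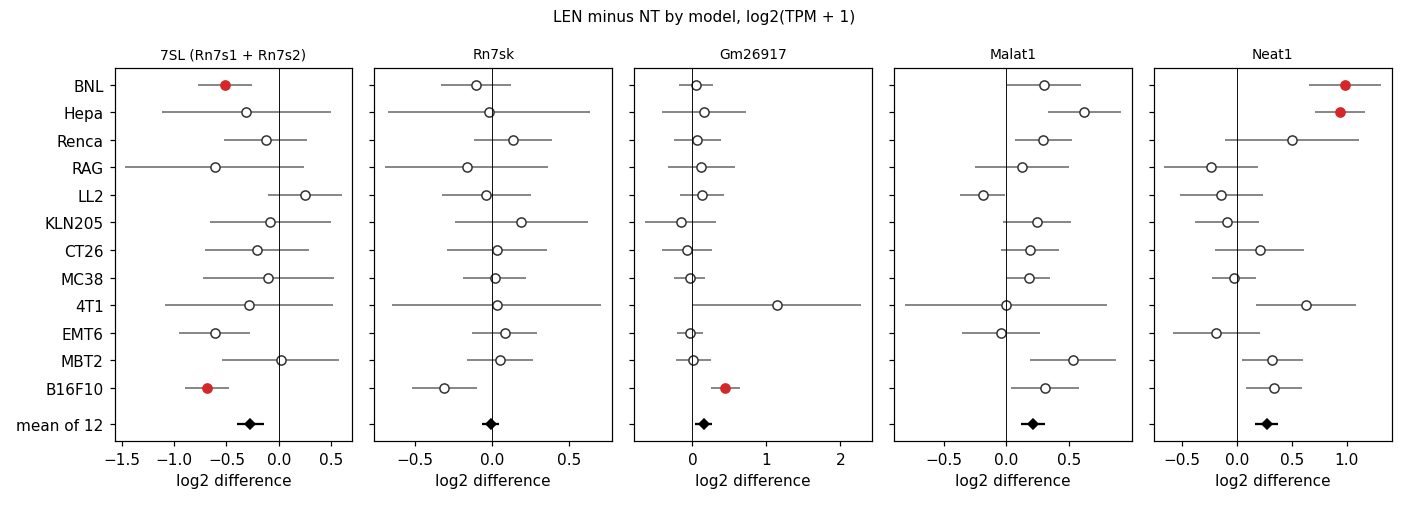
LEN minus NT difference on the log2(TPM + 1) scale (linear axes, 1 panel per RNA with its own scale) in each model fitted alone, with 95% intervals, and the mean of 12 models as a diamond. Filled red points passed an adjusted p under 0.05 within the model: 7SL in BNL and B16F10, Gm26917 in B16F10, and Neat1 in BNL and Hepa, the last of these lost under 5 of 7 other settings.

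The untreated tumors of day 8 were also compared with the treatment-naive tumors of day 1. Base and NT tumors differ in day and size, and the labels do not say whether they were prepared or sequenced together, so these cannot be told apart. NT tumors serve in both comparisons, so the differences are not independent of those for LEN. Over 36 NT and 35 Base tumors, 11.5% of 17428 genes were lower and 17% higher in NT (28.5% in either direction), and 66.5% differed between models in their change. Of the 6 rows, 3 were lower (Rn7s1, Rn7s2 and Gm26917) and 0 higher.

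7SL was lower in NT than in Base by 0.19 on average (SE 0.0507, a fold of 0.879, adjusted p = 0.00454), but lower in 7 models and higher in 5, and the change differed between models (F test adjusted p = 3.76e-06, but 1 without a minimum on mean TPM). EMT6 fell most, by 0.93, from 22.0%, 23.2% and 23.7% in Base to 12.5%, 13.1% and 10.7% in NT. KLN205 had 24.1%, 24.3% and 23.1% in Base and 14.6%, 12.7% and 13.7% in NT, and BNL had 20.3%, 20.6% and 22.1% and then 14.1%, 12.7% and 14.1%. These ranges lie far apart. CT26 went the other way, by 0.43, from 12.5%, 14.9% and 11.6% to 19.98%, 15.9% and 16.6%, also without overlap. Renca overlapped, with 22.4%, 18.8% and 17.8% in Base and 21.02%, 28.9% and 26.3% in NT. All NT tumors of a model were below the Base tumors in 4 models and above in 1, where 13.7% and 15.8% of cases over all genes and models did so. The mean call was lost when KLN205 (-0.13, adjusted p = 0.0847) or EMT6 (-0.12, adjusted p = 0.125) was left out, with the replicate block (-0.19, adjusted p = 0.367), with a pseudocount of 0.1 (adjusted p = 0.0569) and without a minimum on mean TPM (adjusted p = 1). The Rn7s1 row alone (-0.17, adjusted p = 0.00711) lost its call without BNL (-0.11, adjusted p = 0.108), EMT6 (-0.10, adjusted p = 0.171) or KLN205 (-0.12, adjusted p = 0.0971), and the Rn7s2 row (-0.23, adjusted p = 0.000596) kept its call without any single tumor or model. Both rows lost their calls with the replicate block (adjusted p = 0.336 for Rn7s1 and 0.138 for Rn7s2). They also lost them without a minimum on mean TPM (adjusted p = 0.625 for Rn7s2). With the models as units, the exact sign-flip test for 7SL gave p = 0.199.

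Gm26917 was lower in NT by 0.15 (SE 0.0453, adjusted p = 0.00988), in 11 of 12 models (4.33% of all genes were lower in at least 10), and the F test of a difference between models did not pass (adjusted p = 0.368), although it passed with each of the 3 other scalings (adjusted p = 0.0499 over non-member genes, 0.00511 over protein-coding genes and 0.00786 by the upper quartile). EMT6 had 6.84%, 5.55% and 5.09% in Base and 3.79%, 3.92% and 3.86% in NT, without overlap, and without EMT6 the mean was -0.11 (adjusted p = 0.0980). The call was also lost with the replicate block (-0.15, adjusted p = 0.264) and without a minimum on mean TPM (-0.15, adjusted p = 0.859). RAG was the model where it was higher. Gm42418 was lower by 0.19 (SE 0.0468, adjusted p = 0.00193) in 11 of 12 models as well.

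Rn7sk had a mean NT minus Base difference of -0.0015 (95% interval -0.064 to 0.061, adjusted p = 0.980), Malat1 of -0.020 (-0.11 to 0.068, adjusted p = 0.776) and Neat1 of 0.049 (-0.077 to 0.17, adjusted p = 0.603). For Malat1 the change differed between models (F test adjusted p = 0.00302). It was 0.48 in BNL, from 2008, 1747 and 2245 TPM in Base to 2809, 2844 and 2669 TPM in NT, and -0.49 in Hepa, from 3047, 2263 and 3077 TPM to 2123, 1858 and 1935 TPM. Neither pair of groups overlapped. Neat1 in Hepa had 531.9, 403.8 and 536.2 TPM in Base, above its 3 NT tumors and below its 3 LEN tumors.

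**Figure D5:**
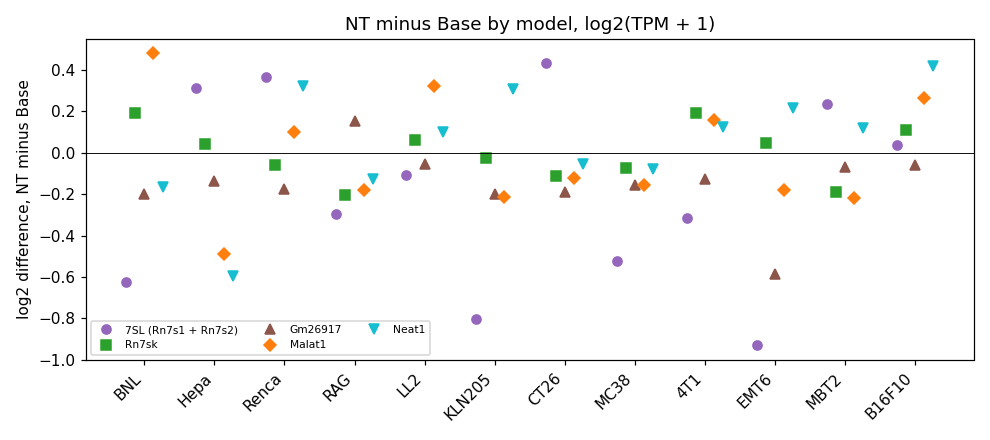
NT minus Base difference on the log2(TPM + 1) scale (linear axis) for 7SL, Rn7sk, Gm26917, Malat1 and Neat1 in 12 models, 1 point per model and RNA, from the fit over all NT and Base tumors. 7SL runs from -0.93 in EMT6 to 0.43 in CT26, and Gm26917 lies below 0 in 11 models.

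Of 10 other small structural RNAs, 6 were lower in NT and 0 higher, with a median of -0.21, and Rny3, a Y RNA, had the largest fall at -3.28 (SE 0.957, adjusted p = 0.00768), lower in 8 models and higher in 4. Beside 17% of all genes higher and 11.5% lower, 5 of 9 SRP genes were higher (Srp54a, the signal-binding subunit, 0.22), 2 of 7 of the 7SK list (Larp7, 0.097), 5 of 9 paraspeckle proteins (Hnrnpk, 0.14), 3 of 7 speckle proteins (Srsf3, 0.12), 4 of 25 polymerase III genes (Gtf3c4, 0.12) and 2 of 6 La and decay factors (Skiv2l2, 0.14), with 0 lower in each list. Of 16 ribosomal protein mRNAs 14 were higher (Rpl4, 0.21). Of 22 other long non-coding RNAs and host genes 4 were higher (Tug1, 0.17) and 7 lower (Meg3, -0.80), and 8 of 12 stress genes were higher (Bnip3, 0.51). Replication histones had 0 of 12 called by limma and 4 at an unadjusted p under 0.05, mitochondrial mRNAs 3 of 13 lower (mt-Nd3, -0.22), and rRNA-like rows 2 of 5 higher (mt-Rnr1, 0.56) and 1 lower (Gm42418). Higher calls in this comparison depend on the scaling, since scaling to protein-coding genes turned 2002 lower and 2971 higher genes into 4455 and 1193. With that scaling, higher and lower genes numbered 2 and 0 in the SRP list, 0 and 0 in the 7SK list, 1 and 1 of the paraspeckle proteins, 0 and 3 of the speckle proteins, 0 and 6 of the polymerase III genes, 1 and 1 of the La and decay factors and 12 and 0 of the ribosomal proteins. All 4 muscle markers (sums of 1.55 to 553.7 TPM in Base and 1.25 to 125.8 TPM in NT) and all 3 adipocyte markers (2.74 to 171.9 TPM and 3.15 to 32.7 TPM) were lower in NT. So were 3 of 5 endothelial markers, 3 of 5 T-cell markers (Cd2, a T-cell adhesion protein, -0.46) and 2 of 4 neutrophil markers (Csf3r, the G-CSF receptor, -0.33). A single marker was lower for fibroblasts (Dcn, -0.65), macrophages (Cd68, -0.16), epithelium (Cdh1, -0.26) and melanocytes (Mlana, -0.12), and 0 markers of any of these types were higher. Outside B16F10 the melanocyte markers summed to at most 2.01 TPM in Base, and Mlana was lower in 9 models and higher in 1. With protein-coding scaling, lower markers numbered 4 of 4 for fibroblasts, 3 of 4 for epithelium, 5 of 5 for endothelium and 4 of 5 for T cells. They stayed at 1 for macrophages and melanocytes and 2 for neutrophils, and 1 of 4 proliferation genes was then lower. In the main fit limma called 0 erythroid, hepatocyte, squamous, kidney, intestinal or urothelial markers and 0 of 4 proliferation genes, with 1 (a kidney marker) at an unadjusted p under 0.05. Their part in the changes was not tested.

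The genes most like each RNA, among genes other than the 6 RNAs, were sought over the 36 group means of log2(TPM + 1), as a description. Groups of 1 model share cell line and strain, so the points are not independent. For Rn7s1 they were Rn7s6 (r = 0.891), Rnu12, a minor spliceosome RNA (0.680), and 2610203C22Rik (0.648), beside 0.801 for Rn7s2, the other 7SL row. For Rn7sk they were Gm24447 (0.827), Eps8l2 (0.801) and Emp2 (0.801). For Gm26917 they were Gm42418 (0.885), Arhgap42 (0.842) and 9130024F11Rik (0.826). Each of these 3 leading genes is a similar copy or a neighbor of the row it resembles. Malat1 was most like Zfc3h1 (0.788), Esyt2 (0.783) and Cdk13 (0.776), and Neat1 was most like St3gal1 (0.757), Cnpy4 (0.725) and Gm24041 (0.681).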

How the data were processed

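RNA of subcutaneous tumors was measured. The authors isolated total RNA with a Maxwell RSC kit, depleted ribosomal RNA, sequenced on NovaSeq and NextSeq instruments (which tumor ran on which is not given in the sources used here), and processed reads with bcl2fastq, Trimmomatic 0.36, STAR 2.5.2b and RSEM 1.2.31 against mouse GRCm38 (mm10), per the submitters' processing notes. The authors deposited TPM for 50686 genes, scaled to the same total per tumor, so depth and counting precision are unknown. Short RNAs weigh more in TPM than in reads, and reads of identical transcripts cannot be told apart.

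TPM was analyzed as log2(TPM + 1), with a pseudocount of 1. Genes with a mean of at least 1 TPM in the fitted tumors were tested with limma 3.58.1 in R 4.3.3 (lmFit, eBayes with a mean-variance trend), with Benjamini-Hochberg adjustment over all genes and a threshold of 0.05. Groups came from the titles of the samples. LEN minus NT and NT minus Base were fitted over models, with the 12 model differences weighted equally and an F test of their differences. LEN minus NT was also fitted within each model, and models were compared in Base. P-values measure the spread between tumors. Fold changes are on the log2(TPM + 1) scale. The fits were repeated with a pseudocount of 0.1, with a minimum of 5 TPM or none, with 3 other scalings, without the trend, with a replicate block, and without each tumor or model. Exact sign flips over models, lists under protein-coding scaling and neighboring rows without 1 tumor were chosen after the values had been seen. The fits were checked on simulated data.

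Annotation and sequences came from GENCODE M21, which has 50462 of the gene IDs. The members and gene lists were chosen with earlier results of these data known. Named genes were the 6 members, the other rows among the 10 highest, the 3 genes outside the members most correlated with each of 5 members, and from each list the called gene with the largest rise and fall. Rn7s6, Rmrp, Gm42418, Rn18s-rs5 and the mitochondrial ribosomal RNAs were also named as rows next to the members. No pair of tumors shared more than 4.99% of its values among 17428 genes. Plots used matplotlib 3.10.9. A member's sequence and the values of a gene of the paraspeckle list are not reported here.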

Additional observations from a re-analysis of the deposited data

Results flagged for a closer look

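In 7 cases the change of an RNA differed between the 12 models by the limma F test. For LEN minus NT these were Neat1 (adjusted p = 9.26e-05), with differences from -0.23 in RAG to 0.98 in BNL, Gm26917 (adjusted p = 0.0101), from -0.16 in KLN205 to 1.14 in 4T1, and Rn7s2 (adjusted p = 0.0395), from -0.73 in EMT6 to 0.38 in LL2. The Rn7s2 result was lost in 23 of 84 fits that left out 1 tumor or model and under 4 of 8 other settings: no minimum on mean TPM (adjusted p = 1), a pseudocount of 0.1 (0.0859), the replicate block (0.138) and protein-coding scaling (0.0546). The 7SL sum did not pass this test. The replicate block also ended the Neat1 (adjusted p = 0.142) and Gm26917 (adjusted p = 0.384) results for LEN. For NT minus Base these were Rn7s2 (adjusted p = 6.48e-07), from -1.12 in KLN205 to 0.64 in Renca, Rn7s1 (adjusted p = 7.97e-07), from -0.90 in EMT6 to 0.48 in CT26, their sum 7SL (adjusted p = 3.76e-06), and Malat1 (adjusted p = 0.00302), from -0.49 in Hepa to 0.48 in BNL. The results of Gm26917 for LEN and of Rn7s1, Rn7s2 and 7SL for NT minus Base were lost without a minimum on mean TPM (adjusted p = 1). Of all genes tested, 35.3% differed between models for LEN and 66.5% for NT minus Base. Single outlying tumors were not tested.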

How the results depend on the processing

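Each called mean difference of the members kept its direction under every setting tried. For LEN minus NT, leaving out each tumor or model gave -0.32 to -0.23 for 7SL, 0.18 to 0.25 for Malat1 and 0.20 to 0.31 for Neat1, all called, and 0.061 to 0.18 for Gm26917, whose call was lost in 26 of 84 fits, among them those without 4T1, B16F10, BNL, Hepa, LL2, RAG or Renca (0.061 to 0.16). For NT minus Base it gave -0.24 to -0.12 for 7SL (call lost without EMT6, -0.12, or KLN205, -0.13) and -0.18 to -0.11 for Gm26917 (lost without EMT6, -0.11). Adjusted p of the F test of LEN effects ranged from 0.00025 to 0.080 for Gm26917 (lost without 4T1, 0.0802, or its NT replicate 2, 0.0561), 0.0050 to 0.30 for Malat1 (passed in 4 fits, 0.00499 to 0.0422) and 0.012 to 0.50 for Rn7sk (passed in 2, 0.0120 and 0.0197).

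Without a minimum on mean TPM, 7SL (-0.27, adjusted p = 1), Gm26917 (0.15, adjusted p = 0.897), and in NT minus Base 7SL (-0.19, adjusted p = 1) and Gm26917 (-0.15, adjusted p = 0.859) lost their calls. So did the F tests, at an adjusted p of 1, of Gm26917 for LEN, of 7SL for NT minus Base, and of 7SL, Rn7sk and Gm26917 in Base, and 1 higher and 0 lower calls were left within models. The cause was not tested. With a pseudocount of 0.1, Gm26917 for LEN (0.15, adjusted p = 0.0765), 7SL for NT minus Base (-0.19, adjusted p = 0.0569) and the F test of Rn7sk in Base (adjusted p = 0.123) were lost. Gm26917 for LEN was lost with each scaling, at 0.12 over non-member genes, 0.14 over protein-coding genes and 0.13 by the upper quartile. Scaling over non-member genes brought the F test for LEN to 0.0432 for Malat1 and 0.0243 for Rn7sk, and that for NT minus Base to 0.0499 for Gm26917. Protein-coding scaling gave 0.0246 for Malat1 and 0.00511 for Gm26917 in the same tests, and upper-quartile scaling 0.00786 for Gm26917. Without the trend, Rn7sk passed both F tests (0.00158 and 0.0250). In the same order of scalings, genes lower with LEN numbered 3181, 2895 and 3163 (main 1712), and for NT minus Base 4141, 4455 and 3524 were lower (main 2002) and 1141, 1193 and 1419 higher (main 2971). With a minimum of 5 TPM, 951 were lower in NT. Exact sign flips over models, chosen after seeing the data, did not pass for Gm26917 (0.15, p = 0.118) and Neat1 (0.27, p = 0.0527) with LEN or for 7SL in NT minus Base (-0.19, p = 0.199). Multiplying TPM by length moved Malat1 to 0.663%, Neat1 to 0.252%, Rn7sk to 1.09%, Rn7s1 to 1.34% and Rn7s2 to 0.564% of the total, and summing moved Rn7s1 to 15.8%.

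Replicate numbers are shared between groups, but did not mark pairs: of 20 same-numbered LEN and NT pairs 0 had a correlation of deviations over 0.1, and of 25 NT and Base pairs 1 did. With the replicate block, 7SL (-0.20, adjusted p = 0.205) and Gm26917 (0.15, adjusted p = 0.175) for LEN, the F tests of Gm26917 (adjusted p = 0.384) and Neat1 (adjusted p = 0.142), and 7SL (-0.19, adjusted p = 0.367) and Gm26917 (-0.15, adjusted p = 0.264) for NT minus Base were not called, with 8 and 13 residual degrees of freedom in place of 48 and 47. The block left 1280 genes higher with LEN and 1861 that differed between models, and 830 lower and 1082 higher in NT. Malat1 and Neat1 kept their LEN calls. Depth is unknown, and 3 tumors a group limit the tests within a model.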
